A study of Mus musculus with 9 samples.

Results

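The 9 genes described here encode complement components and receptors: the 3 chains of C1q (C1qa, C1qb, C1qc), the central components C3 and C4b, the alternative pathway proteins factor B (Cfb) and properdin (Cfp), and the anaphylatoxin receptors C3ar1 and C5ar1. They were taken by symbol from the feature tables, in which all 9 were present, out of 30406 gene identifiers that the tables of all libraries shared. A wider list of 55 complement genes, 54 of them in both versions of the feature table, served as the surrounding pathway.

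The data were single-cell 3′ RNA counts from cultures of mouse embryonic fibroblasts (MEFs) that were being reprogrammed to induced neurons. There were 9 libraries, 1 for each of 3 genotypes (WT, Per1-/- and Per2-/-) on each of days 4, 7 and 10. Per1 and Per2 encode repressors of the circadian clock, and the mutant mice carried the Per1tm1Drw or Per2tm1Drw allele. In every library, WT included, the cells had received doxycycline-inducible neuronal transcription factors with the M2rtTA transactivator by lentivirus, and days were counted from the addition of doxycycline. The MEFs were pooled from several embryos of undetermined sex, after removal of head and heart, and each genotype and day was 1 library, so the 3 days stood in for replicates of a genotype and the 3 genotypes for replicates of a day. MEF cultures of this kind carry other cells of the embryo along, and the comparison of interest was which of them supplied each complement transcript.

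Complement is a cascade of plasma and tissue proteins that tags particles for uptake and calls in inflammatory cells. C1q recognises a target and opens the classical pathway, C4b and C3 are cleaved and become attached to the surface, and factor B with properdin forms and stabilises the C3 convertase of the alternative pathway. The fragments C3a and C5a act on their receptors on myeloid cells. Tissue macrophages are a known source of C1q, whereas stromal and mesothelial cells can make C3, C4 and factor B.

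All 9 genes lay on the minus strand in the mouse build GRCm38. The C1q genes formed a cluster on chromosome 4, with C1qb at chr4:136880129-136886187, C1qc at chr4:136889804-136893065 and C1qa at chr4:136895917-136898803. C3 lay at chr17:57203970-57228136, C4b at chr17:34728380-34743882, Cfb at chr17:34856374-34862518, Cfp at chrX:20925454-20931555, C3ar1 at chr6:122847138-122856161 and C5ar1 at chr7:16246743-16259540. Cfb shared 6107 bases on the same strand with the gene Gm20547, and C4b has the near-identical neighbour C4a, so counts of Cfb and C4b are uncertain where reads could be assigned to either. C4a was listed in the day 10 tables alone, where it had 35, 53 and 54 UMI in WT, Per1-/- and Per2-/- against 859, 3476 and 1389 for C4b.

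Promoter sequence was matched for 6 of the 9 genes (C1qb, C1qc, C3, Cfp, C3ar1 and C5ar1) in the RefSeq table of GRCm38.p6. The 3 shown are those whose windows lay wholly outside the annotated gene. They are a C1q chain and properdin, found mainly in macrophage-like cells, and C3, found in several cell types. Each run is the 250 bases before the RefSeq start, on the minus strand and written 5′ to 3′. Capitals mark GAGGAA, the core letters of PU.1 sites, 30 bases before the start of C1qb.
C1qb, chr4:136886201-136886450: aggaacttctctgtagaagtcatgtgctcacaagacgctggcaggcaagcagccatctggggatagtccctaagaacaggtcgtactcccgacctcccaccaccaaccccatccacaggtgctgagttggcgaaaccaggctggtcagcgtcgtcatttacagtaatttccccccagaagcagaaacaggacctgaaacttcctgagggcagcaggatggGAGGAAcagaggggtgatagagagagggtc
C3, chr17:57228137-57228386: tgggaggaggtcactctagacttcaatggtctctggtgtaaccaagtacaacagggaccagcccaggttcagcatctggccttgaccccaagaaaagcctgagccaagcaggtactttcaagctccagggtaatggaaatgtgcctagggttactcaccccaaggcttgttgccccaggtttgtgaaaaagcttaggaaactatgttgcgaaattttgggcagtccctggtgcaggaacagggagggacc
Cfp, chrX:20931556-20931805: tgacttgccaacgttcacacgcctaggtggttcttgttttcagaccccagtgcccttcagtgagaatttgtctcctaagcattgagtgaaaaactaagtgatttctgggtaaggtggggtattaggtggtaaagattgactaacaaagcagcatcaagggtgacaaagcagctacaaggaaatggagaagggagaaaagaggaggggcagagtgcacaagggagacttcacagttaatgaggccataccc
Of the 6 windows, C1qb held GAGGAA as written and C1qc held it on the other strand, 193 bases before the start. The motif was present on either strand in 23.3% of 32851 promoters of the same length. CACGTG, the E-box letters that CLOCK and BMAL1 bind, did not occur on either strand in the 6 windows and was present in 6.02% of all promoters. Neither motif contains the other. The windows end at the RefSeq start, and by the GENCODE annotation 151 of the 250 bases of C1qc, 202 of C5ar1 and 4 of C3ar1 lay inside the gene.

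The libraries held 126625215 to 353198559 unique molecular identifiers (UMI), the unit in which single RNA molecules were counted. Of 95603 barcodes, 74835 remained after filters and removal of doublets, with 6047 to 10663 cells per library and medians of 12791 to 27360 UMI per cell. The WT day 10 library stood apart in that its median barcode held 3552 UMI, and 55.4% of its barcodes met the filters against 86.1 to 94.5% elsewhere. Libraries shared 0.189 to 2.89% of the barcodes of the smaller library. Per1 transcripts were at 6.34 to 7.89 CPM (UMI of a gene scaled to a fixed total over the cells summed) in WT and at 9.14 to 10.3 CPM in Per1-/-, and Per2 transcripts at 2.58 to 2.99 CPM in WT and 4.97 to 6.39 CPM in Per2-/-. These 3′ tags need not lie in the deleted part, so they did not check the labels. The Per1-/- libraries of days 7 and 10 held 0.0674 and 0.0594 CPM of Xist against 347 to 996 CPM in the other 7, and 209 and 216 CPM of Y-linked transcripts against 50.9 to 117 CPM. These 2 libraries thus held almost no female cells, whereas the other 7 held both Xist and Y-linked transcripts.

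Cells were clustered without the complement genes and named from marker lists that contained none of them. Macrophage-like cells numbered 6382 and ranged from 1.71 to 23.0% of a library. All 15 macrophage markers were at least 2-fold above the other cells, and their summed level was 17821 to 23947 CPM against 27.6 to 106 CPM in fibroblast-like cells. There were 37708 fibroblast-like cells (13 of 16 markers) and 474 mesothelial-like cells (13 of 13 markers). Mesothelial-like cells reached 50 per library in 4 libraries, Per1-/- on days 4, 7 and 10 and Per2-/- on day 4, and no WT library was among them. Class comparisons rested on clusters and are given as descriptions without a test.

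The 9 genes fell into those found almost wholly in macrophage-like cells and those found mainly elsewhere. C1qa, C1qb, C1qc, Cfp, C3ar1 and C5ar1 were each at least 4-fold higher in macrophage-like than in fibroblast-like cells in 9 of 9 libraries, whereas 7.44% of the 10507 genes compared met that criterion. C3 was shared between classes, the C4b UMI lay mainly in fibroblast-like cells, the largest class, and the Cfb UMI lay mainly in fibroblast-like cells of a few libraries. No member was at least 4-fold lower in all 9 libraries, a criterion met by 13.5% of genes. Against neuron-like cells, those 6 genes and C3 were at least 4-fold higher in macrophage-like cells in 9 of 9 libraries, as were 8.89% of 11257 genes, and no member was at least 4-fold lower in all of them (17.4% of genes). Because tags were counted at the 3′ end, levels were compared between cells for the same gene, not between genes.

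**Figure D1:**
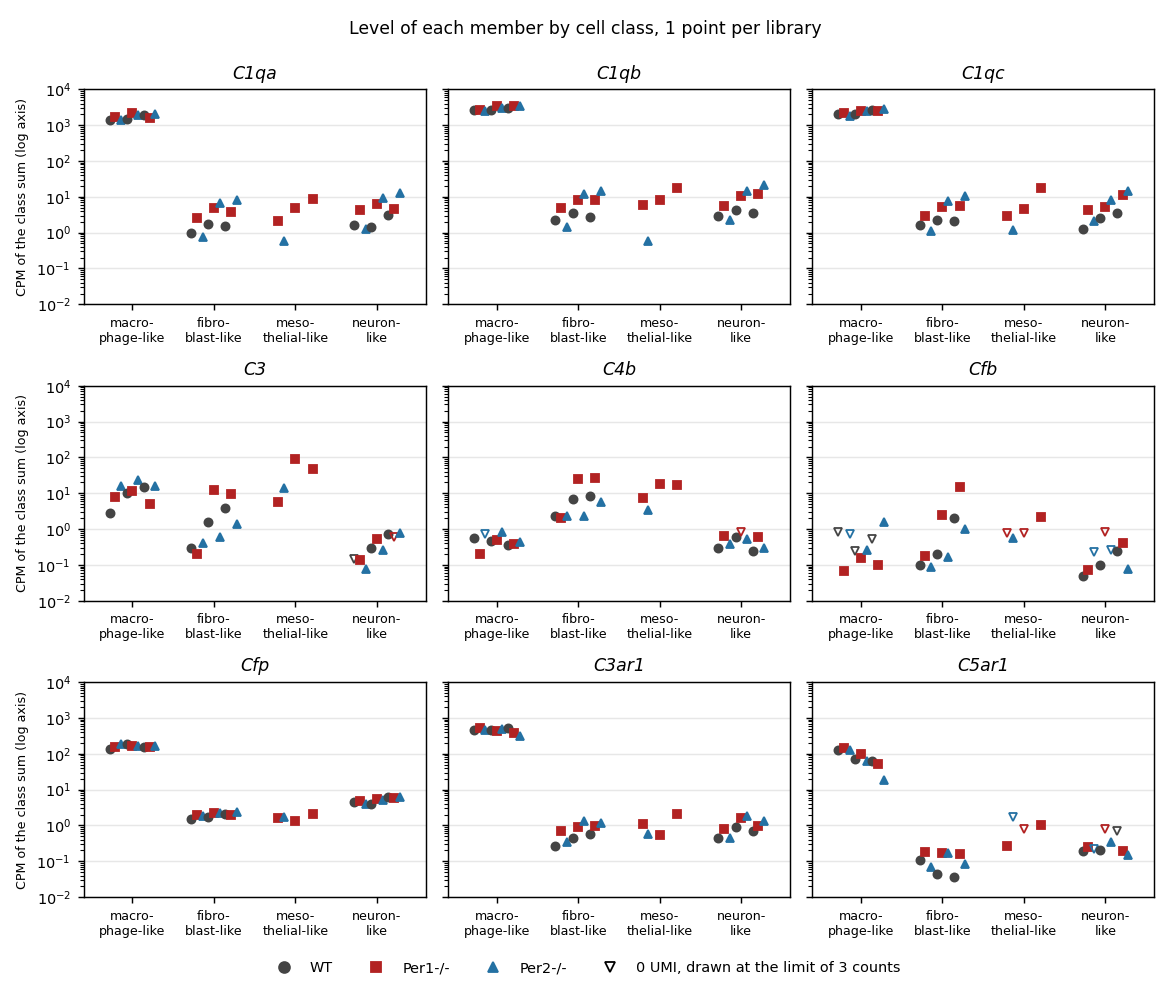
Level of each of the 9 genes (CPM, log scale) in summed macrophage-like, fibroblast-like, mesothelial-like and neuron-like cells, 1 point per library with at least 50 cells of the class. The 6 genes C1qa, C1qb, C1qc, Cfp, C3ar1 and C5ar1 sit far higher in macrophage-like cells in each of the 9 libraries. C4b sits higher in fibroblast-like than in macrophage-like cells.

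C1q, the recognition molecule of the classical pathway, was found almost wholly in macrophage-like cells. C1qb in macrophage-like cells was at 2738, 2729 and 2986 CPM in WT on days 4, 7 and 10, at 2735, 3328 and 3330.3 CPM in Per1-/-, and at 2437, 2957 and 3536 CPM in Per2-/-. C1qa ranged from 1413 to 2142 CPM and C1qc from 1820.5 to 2782 CPM over the same 9 libraries. The 3 genotypes overlapped for all 3 chains. The median ratio of macrophage-like to fibroblast-like CPM was 636 for C1qa (range 254 to 1893), 578 for C1qb (238 to 1680.1) and 748 for C1qc (264 to 1679).

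Of all UMI of these chains in the cells kept, 93.5% for C1qa, 93.1% for C1qb and 93.4% for C1qc lay in macrophage-like cells. A C1qb UMI was found in 99.9% of macrophage-like cells, and in 99.7% after each cell was thinned to 5000 UMI. For fibroblast-like cells these shares were 14.96% and 3.62%, and for neuron-like cells, which are not a main source of C1q, 8.81% and 3.35%.

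C1q was also counted at a low level outside macrophage-like cells. The summed C1q level was 3.28 to 33.4 CPM in fibroblast-like and 5.59 to 48.7 CPM in neuron-like cells. C1qa made up 20.3 to 26.4% of the C1q UMI in fibroblast-like cells and 21.8 to 26.8% in macrophage-like cells. C1qb made up 41.8 to 47.5% against 39.8 to 44.4%, and C1qc 28.1 to 34.2% against 31.5 to 34.9%. Within a library, the C1qb share was higher in fibroblast-like cells in 9 of 9, with separate intervals in 5. The C1qc share was higher in them in 2 of 9, and in 5 it was lower with separate intervals. The C1qa share was higher in 2 of 9, with separate intervals in 0 in either direction. In Per2-/- day 7, C1qb was 44.9% of the fibroblast-like C1q UMI (exact 95% interval 43.5 to 46.4) and 40.1% of the macrophage-like (39.9 to 40.3). As a share of the macrophage-like level, C1qb in fibroblast-like cells was 0.0595 to 0.420%. Of the 15 macrophage markers, 13 had shares between 0.0443 and 0.735% in these cells, Csf1r (0.131 to 0.584%) and Tyrobp (0.0691 to 0.472%) among them, while Cd14 (1.23 to 2.30%) and Mertk (11.0 to 18.3%) lay above. The share of cells with a C1qb UMI after thinning was near that of neuron-like cells, and the part of free RNA in this level was not tested.

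**Figure D2:**
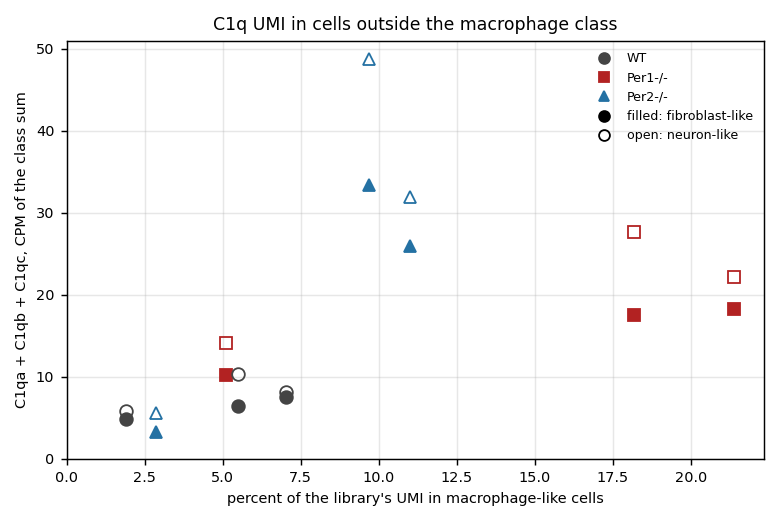
Summed level of C1qa, C1qb and C1qc (CPM, vertical axis) in fibroblast-like (filled) and neuron-like (open) cells of each library against the percent of that library's UMI that lay in macrophage-like cells, with colour and shape for genotype. The level stays between 3.28 and 48.7 CPM, against 5671 to 8362 CPM in macrophage-like cells, and is highest in the Per2-/- libraries of days 7 and 10.

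Properdin, which stabilises the alternative pathway convertase, was also mainly a macrophage transcript but not as cleanly. Cfp in macrophage-like cells was at 134, 189 and 159 CPM in WT on days 4, 7 and 10, at 159.9, 161 and 157 CPM in Per1-/- and at 191, 161 and 166 CPM in Per2-/-, and the genotypes overlapped. In fibroblast-like cells it was at 1.498 to 2.43 CPM, a median ratio of 79.7 (range 68.2 to 109). Macrophage-like cells held 83.6% of its UMI and fibroblast-like cells 6.31%. Relative to the macrophage-like level, Cfp was at 0.913 to 1.47% in fibroblast-like and 2.01 to 3.91% in neuron-like cells, above the 0.0595 to 0.420% and 0.0899 to 0.597% of C1qb. Its low level in these classes was thus not in the same ratio to the macrophage-like level as that of C1q.

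The receptors C3ar1 and C5ar1, which bind C3a and C5a, were confined to a similar degree among the classes compared. C3ar1 in macrophage-like cells was at 450.0, 466 and 520.5 CPM in WT on days 4, 7 and 10, at 528, 443 and 389 CPM in Per1-/- and at 455, 492 and 320.1 CPM in Per2-/-. C5ar1 was at 131, 70.9 and 61.7 CPM in WT, at 141, 96.4 and 52.5 CPM in Per1-/- and at 126, 63.4 and 19.0 CPM in Per2-/-. For C5ar1, every day 4 library was above every later library, and in each genotype day 10 was the lowest. The median ratio to fibroblast-like cells was 774 for C3ar1 (range 269 to 1710) and 756 for C5ar1 (230 to 1785), and macrophage-like cells held 92.8% and 91.2% of their UMI.

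Within a single macrophage-like cluster, C5ar1 was lower on day 7 than on day 4 in each genotype, but its few day 10 cells were not lower. In the macrophage-like cluster led by Cx3cr1, Cd52 and Mpeg1, C5ar1 was at 135, 133 and 137 CPM in WT, Per1-/- and Per2-/- on day 4 and at 69.9, 89.9 and 49.6 CPM on day 7. The cluster led by Ccl8, Ctla2b and Wfdc17 was made of day 10 cells and held 41.7, 46.5 and 13.3 CPM. The few day 10 cells of the Cx3cr1 cluster, 29 in WT and 21 in Per1-/-, had 208 and 137 CPM. Of the day 10 cells, 169 in WT, 1185 in Per1-/- and 942 in Per2-/- lay in the Ccl8 cluster. A macrophage-like cluster led by Hist1h1b, Hist1h3c and Cep55 held 33, 141 and 30, and it also held cells of days 4 and 7. C5ar1 by library in that cluster is not given here. The day 10 values thus came from another mix of clusters than those of days 4 and 7.

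Within macrophage-like cells, the comparison of genotypes and days gave no called member. The test was edgeR's quasi-likelihood test on summed counts with day as a factor, and 7 members passed the filter on low counts, C4b and Cfb being too low. For Per1-/- against WT, 0 of 7 were called against 0.0158% of all 12622 genes tested, and 0 members and 6.72% of all genes had an unadjusted p under 0.05. For Per2-/- against WT, 0 of 7 were called (0% of all genes), with 1 under an unadjusted 0.05 (16.3% of all genes), and for Per1-/- against Per2-/- 0 of 7 (0.00792% of all genes), with 2 under it (16.6%). DESeq2 also called 0 members in each of these 3 comparisons.

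The C1q chains were 0.21 ± 0.12 (C1qb), 0.18 ± 0.11 (C1qc) and 0.26 ± 0.15 (C1qa) higher on the log2 scale in Per1-/- than in WT macrophage-like cells (log2 fold change ± SE, edgeR adjusted p = 0.801, 0.820 and 0.806), and the other 4 members lay between -0.18 and 0.16. Against WT, Per2-/- had C1qa at 0.22 ± 0.15, Cfp at 0.16 ± 0.14, C1qc at 0.12 ± 0.11 and C3ar1 at -0.15 ± 0.15 (edgeR adjusted p = 0.481, 0.581, 0.618 and 0.634). The largest differences were those of C3 and C5ar1. C3 was 1.01 ± 0.40 higher in Per2-/- than in WT (edgeR adjusted p = 0.278) and 1.19 ± 0.37 lower in Per1-/- than in Per2-/- (log2 fold change -1.19, adjusted p = 0.193). With single libraries left out, the folds in Per2-/- against WT ran from 0.68 to 1.74 for C3 and from -0.84 to -0.16 for C5ar1. C5ar1 was at -0.54 ± 0.27 in Per2-/- against WT and at 0.70 ± 0.27 in Per1-/- against Per2-/- (edgeR adjusted p = 0.358 and 0.246), and the other 5 members of the latter comparison lay between -0.11 and 0.12. For C5ar1 in the latter comparison, leaving out Per2-/- day 4 gave 1.005 (adjusted p = 0.0264), and testing with no filter on low counts gave C3 an adjusted p of 0.0303 (1782 of 12658 and 523 of 19587 genes called in these fits), over alternatives that ranged up to an adjusted p of 1.

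Between days, 0 of 7 members were called in macrophage-like cells from day 4 to 7 (0.357% of all genes; 2 members and 20.2% of all genes under an unadjusted p of 0.05) and 0 of 7 from day 7 to 10 (1.04% of all genes; 1 and 8.67% under it), by edgeR and by DESeq2. C5ar1 had the largest values, at -0.77 ± 0.27 from day 4 to 7 and -0.86 ± 0.27 from day 7 to 10 (edgeR adjusted p = 0.168 and 0.403). With no filter on low counts these had adjusted p-values of 0.0439 and 0.0431 (633 and 209 of 19587 genes called), and over all alternatives the adjusted p ranged up to 1. From day 4 to 7 the C1q chains were at 0.32 ± 0.15 (C1qa), 0.27 ± 0.11 (C1qc) and 0.22 ± 0.12 (C1qb) and C3 at 0.72 ± 0.40 (edgeR adjusted p = 0.267, 0.230, 0.336 and 0.340). From day 7 to 10, C1qc was at 0.21 ± 0.11, C1qb at 0.17 ± 0.12 and C3ar1 at -0.17 ± 0.15 (edgeR adjusted p = 0.642, 0.743 and 0.799).

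**Figure D3:**
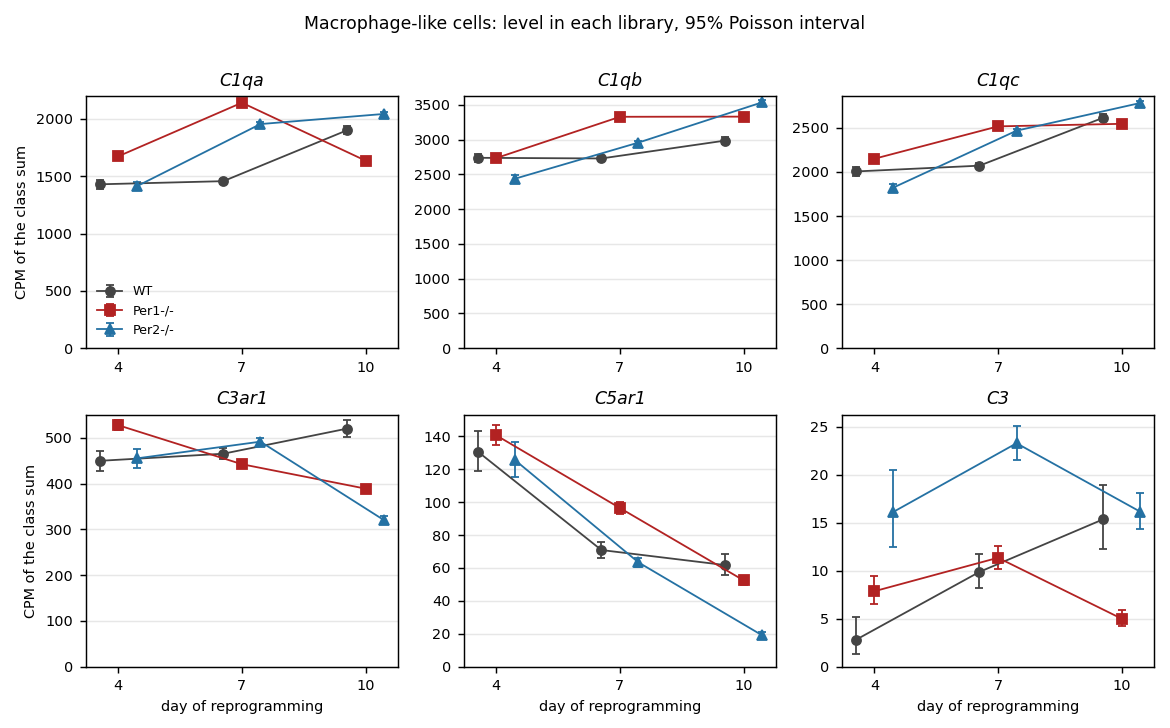
Levels (CPM, vertical axes from 0) of C1qa, C1qb, C1qc, C3ar1, C5ar1 and C3 in macrophage-like cells by day, 1 point per library joined by genotype and set slightly apart, with exact 95% Poisson intervals that cover counting error alone. The C1q chains overlap between genotypes, and C5ar1 is higher in each day 4 library (126 to 141 CPM) than in any later library (19.0 to 96.4 CPM).

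C3, the central component on which all pathways converge, had several sources. Macrophage-like cells held 28.7% of its 6689 UMI, fibroblast-like cells 37.3%, mesothelial-like cells 8.16%, astrocyte-like cells 4.89% and unnamed clusters 20.5%. The unnamed clusters included 309 cells led by Adipoq, Retn and Fabp4 with a high C3 level, which is given under the other observations. By library the macrophage-like share ran from 8.82 to 79.2% (median 33.2%) and the fibroblast-like from 11.9 to 52.0% (median 36.0%). In macrophage-like cells C3 was at 2.78, 9.87 and 15.3 CPM in WT on days 4, 7 and 10, at 7.85, 11.3 and 4.99 CPM in Per1-/- and at 16.1, 23.3 and 16.1 CPM in Per2-/-. The 3 Per2-/- values were the highest, although the interval of WT day 10 (12.3 to 18.9 CPM) overlapped those of Per2-/- day 4 (12.5 to 20.4) and day 10 (14.4 to 18.1), and WT and Per1-/- overlapped. The WT day 4 value rested on 10 UMI, with an exact Poisson 95% interval of 1.33 to 5.12 CPM.

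In fibroblast-like cells C3 was at 0.294, 1.61 and 3.76 CPM in WT on days 4, 7 and 10, at 0.207, 12.1 and 9.47 CPM in Per1-/- and at 0.408, 0.612 and 1.39 CPM in Per2-/-. The 2 highest libraries were Per1-/- on days 7 and 10, and no day 4 library exceeded 0.408 CPM. The ratio of macrophage-like to fibroblast-like C3 had a median of 9.48 but ran from 0.527 in Per1-/- day 10 to 39.4 in Per2-/- day 4, and exceeded 1 in 7 of 9 libraries. The exceptions were those same Per1-/- libraries of days 7 and 10, with ratios of 0.937 and 0.527.

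Mesothelial-like cells, which line the body cavities, had more C3 than fibroblast-like cells wherever both could be compared. C3 was at 5.61, 87.9 and 48.7 CPM in Per1-/- mesothelial-like cells on days 4, 7 and 10 and at 13.8 CPM in Per2-/- on day 4. The ratio to fibroblast-like cells of the same library was 27.1, 7.26, 5.14 and 33.9, at least 4-fold in 4 of 4 libraries, a criterion met by 2.3% of 10058 genes. C3 was the only one of the members past it in this direction among those with at least 10 CPM in any of these sums. Of mesothelial-like cells, 24.9% held a C3 UMI (11.8% after thinning) against 3.82% (1.13%) of fibroblast-like and 0.326% (0.140%) of neuron-like cells. Compared with macrophage-like cells, mesothelial-like cells had C3 ratios on both sides of 1 (macrophage over mesothelial 0.103 to 1.40).

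Against mesothelial-like cells, C1qa, C1qb, C1qc, Cfp, C3ar1 and C5ar1 were at least 4-fold higher in macrophage-like cells in 4 of 4 libraries, as were 6.98% of all genes. C5ar1 had 1, 0 and 2 UMI in mesothelial-like cells of Per1-/- on days 4, 7 and 10 and 0 in Per2-/- day 4, and the 2 libraries without a UMI were counted at a floor of 3 counts. C4b was at least 4-fold lower in macrophage-like cells in 4 of 4 libraries, as were 15.4% of all genes, counting 1 library without a C4b UMI at its floor of 3 counts. C4b was thus found in mesothelial-like cells too, at 7.47, 17.6 and 17.5 CPM in Per1-/- and 3.46 CPM in Per2-/- day 4, with ratios to fibroblast-like cells of 0.670 to 3.65.

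**Figure D4:**
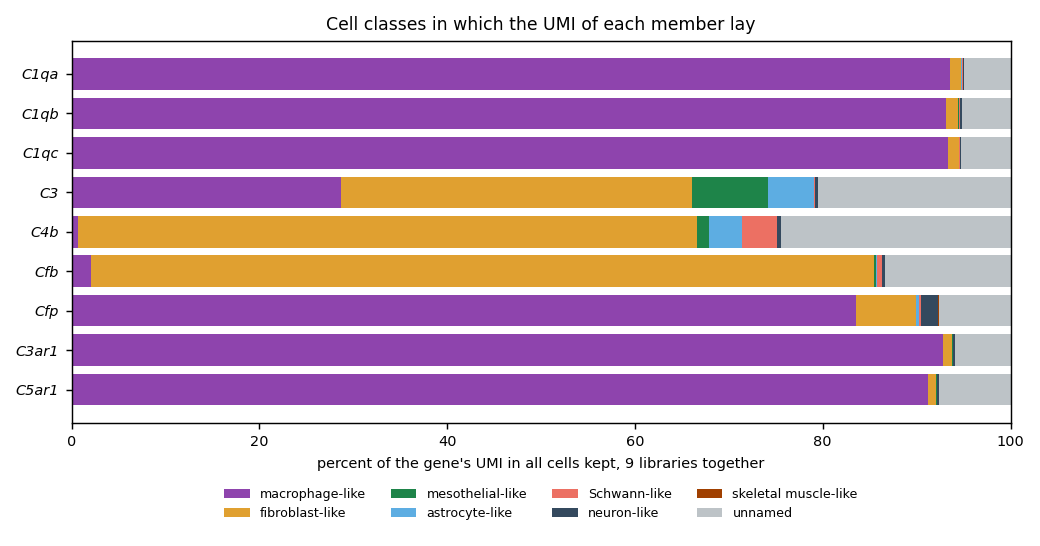
Share (percent) of the UMI of each of the 9 genes that lay in each cell class, over all 74835 cells kept. Macrophage-like cells take 83.6 to 93.5% of C1qa, C1qb, C1qc, Cfp, C3ar1 and C5ar1, and fibroblast-like cells take 65.9% of C4b and 83.4% of Cfb.

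C4b, the classical pathway component cleaved by C1s, was found mainly in fibroblast-like cells, which held 65.9% of its 10954 UMI. Unnamed clusters held 24.4%, Schwann-like cells 3.72% and macrophage-like cells 0.676%. The unnamed clusters had fibroblast markers too, with a summed level of 13870 to 22676 CPM against 20173 to 40002 CPM in fibroblast-like cells. The fibroblast-like level of C4b was 2.27, 6.86 and 8.45 CPM in WT on days 4, 7 and 10, 2.05, 24.7 and 26.1 CPM in Per1-/- and 2.37, 2.25 and 5.84 CPM in Per2-/-. The day 4 libraries were alike, and the Per1-/- libraries of days 7 and 10 stood above all others. In macrophage-like cells C4b did not exceed 0.836 CPM, and its ratio to fibroblast-like cells was below 1 in 9 of 9 libraries (median 0.0725). A C4b UMI was found in 11.1% of fibroblast-like cells (3.71% after thinning) and in 0.639% (0.197%) of neuron-like cells. The thinned share was higher in astrocyte-like (6.87%), Schwann-like (5.64%) and mesothelial-like cells (4.28%). It was lower in unnamed (2.93%), skeletal muscle-like (0.533%) and macrophage-like cells (0.237%). Fibroblast-like cells thus held most C4b UMI as the largest class, not as the class with the largest share of cells with C4b.

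Cfb, the serine protease of the alternative pathway convertase, was nearly absent on day 4. In fibroblast-like cells it was at 0.101, 0.196 and 1.996 CPM in WT on days 4, 7 and 10, at 0.172, 2.46 and 14.6 CPM in Per1-/- and at 0.0845, 0.163 and 0.992 CPM in Per2-/-. Each genotype had its highest level on day 10, and Per1-/- was the highest genotype on each day. On day 4 the intervals of the genotypes overlapped. Fibroblast-like cells held 83.4% of its 2258 UMI, of which 1390 were fibroblast-like UMI of Per1-/- day 10 alone. By library that share had a median of 66.7% and ran from 40.0 to 90.3%. In macrophage-like cells Cfb had 0 UMI in 4 of 9 libraries, and the largest count was 29 UMI (1.54 CPM) in Per2-/- day 10. Macrophage-like Cfb was above the fibroblast-like level in Per2-/- on days 7 and 10, with ratios of 1.64 and 1.55, and below it in Per1-/- day 7, with 0.0641. In the other 6 libraries the macrophage-like count was 0 to 3 UMI. Among these was Per1-/- day 10, the library with the most fibroblast-like Cfb, where the ratio was lowest, at 0.00671.

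**Figure D5:**
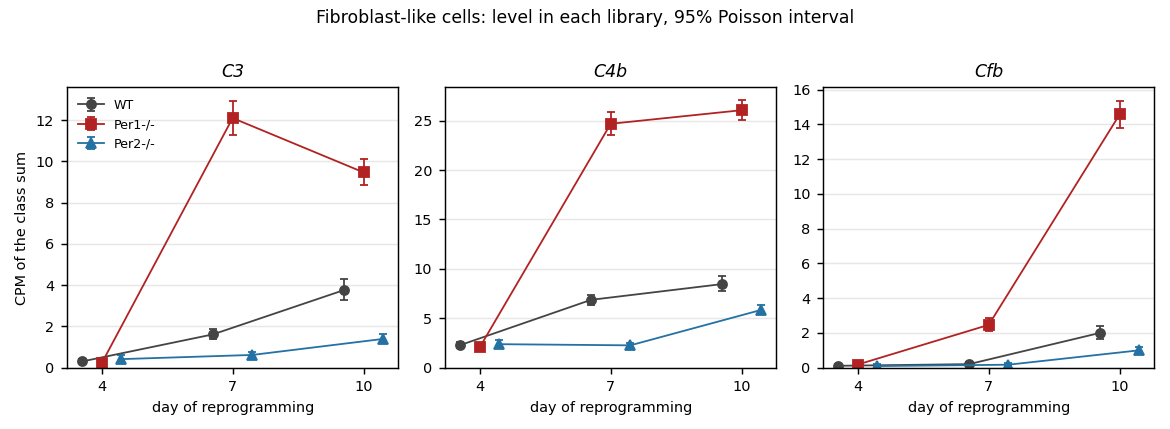
Levels (CPM, vertical axes from 0) of C3, C4b and Cfb in fibroblast-like cells by day, 1 point per library joined by genotype and set slightly apart, with exact 95% Poisson intervals that cover counting error alone. C3, C4b and Cfb are highest in the Per1-/- libraries of days 7 and 10, and all 3 genotypes are low on day 4.

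The differences between genotypes in fibroblast-like cells did not pass the test over all genes. For Per1-/- against WT, edgeR called 0 of 9 members (0% of 16848 genes), with 6 members and 9.11% of all genes at an unadjusted p under 0.05, and DESeq2 called 1, Cfb. The 6 members were Cfb, C4b and the macrophage genes C1qa, C1qb, C3ar1 and C5ar1, which were at a low level in these cells. Cfb was 2.78 ± 0.53 higher on the log2 scale in Per1-/- than in WT (edgeR adjusted p = 0.406), C3 1.76 ± 0.80 higher (adjusted p = 0.565) and C4b 1.39 ± 0.57 higher (adjusted p = 0.534). DESeq2 gave Cfb an adjusted p of 2.76e-05, with 227 of 14950 genes called. For Per1-/- against Per2-/-, edgeR again called 0 of 9 (0.00594% of all genes; 3 members and 15.7% of all genes under an unadjusted 0.05), with Cfb at 3.41 ± 0.56, C3 at 2.52 ± 0.89 and C4b at 1.92 ± 0.60 (edgeR adjusted p = 0.235, 0.259 and 0.243), and DESeq2 called Cfb alone (adjusted p = 2.88e-07, with 715 genes called). For Per2-/- against WT, 0 of 9 were called (0% of all genes; 4 members and 7.97% of all genes under an unadjusted 0.05; 0 by DESeq2), and C3, Cfb and C4b were at -0.76 ± 0.85, -0.63 ± 0.58 and -0.53 ± 0.58, of which only Cfb exceeded its standard error (edgeR adjusted p = 0.754). The 4 members under the unadjusted 0.05 were all macrophage genes, C1qa, C1qb, C1qc and C3ar1.

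The Per1-/- day 4 library decided these calls. Without it, C4b, Cfb and C3 were each called in Per1-/- against WT, at 1.98, 3.32 and 2.47 (edgeR adjusted p = 0.0260, 0.00196 and 0.0379), and in Per1-/- against Per2-/-, at 2.60, 3.87 and 3.36 (adjusted p = 0.00709, 0.000665 and 0.0104). Calls over all genes rose with them, to 571 and 1437 of 16804 genes. In the opposite direction, the level of Y-linked transcripts as a covariate turned C4b to -1.81 ± 0.24 and C3 to -2.63 ± 0.88 in Per1-/- against WT (edgeR adjusted p = 0.672 and 1) and left Cfb at 0.29 ± 0.92 (adjusted p = 1). The Per1-/- libraries of days 7 and 10 were both the male libraries and those with high C3, C4b and Cfb, so sex of the cells, genotype and any other property of these cultures cannot be told apart. Over all 17 alternatives the adjusted p of C4b in Per1-/- against WT ran from 0.0260 to 1, and that of Cfb from 2.76e-05 to 1.

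The make-up of the fibroblast-like class differed between libraries. On day 10, 3754 of the 4891 Per1-/- cells lay in a cluster led by Igf2, Clec3b and Adh1. In WT 715 of 2343 cells did, and in Per2-/- 1297 of 6387, so by share the order was Per1-/-, WT, Per2-/-. In contrast, 4530 of the Per2-/- cells lay in a cluster led by Pcolce2, Mia and Msmp. Within the Igf2 cluster on day 10, C4b was at 31.0, 19.9 and 9.46 CPM in Per1-/-, WT and Per2-/-. Cfb in those cells was at 17.7, 4.70 and 3.01 CPM, and C3 at 11.6, 8.92 and 4.34 CPM. On day 7 a cluster with C1qtnf3 and Flt1 among its leading genes had C4b at 29.3, 10.3 and 3.81 CPM and C3 at 14.1, 2.85 and 1.47 CPM in the same order. For the genes given, the order Per1-/-, WT, Per2-/- was thus the same within both clusters, each a single library per genotype. The other fibroblast-like clusters are not given here. The make-up differed on day 7 too, when a cluster led by Tnn, Adamts3 and Fxyd7 held 62 of 2687 Per1-/-, 1186 of 4638 WT and 3187 of 5948 Per2-/- cells.

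Between days in fibroblast-like cells, edgeR called 0 of 9 members from day 4 to 7 (3.08% of all genes, 1.35% higher; 7 members and 21.1% of all genes under an unadjusted 0.05) and 0 of 9 from day 7 to 10 (1.1% of all genes; 1 and 10.5% under it), and DESeq2 called 2 (C1qa and Cfb; 1502 of 16371 genes) and 1 (Cfb; 405 of 18264 genes). The 7 members under the unadjusted 0.05 were C3, Cfb, C4b and the macrophage genes C1qa, C1qb, C1qc and C3ar1. From day 4 to 7, C3 was at 2.97 ± 0.92, Cfb at 2.33 ± 0.64 and C4b at 1.66 ± 0.61 (edgeR adjusted p = 0.132, 0.0994 and 0.181). Leaving out Per1-/- day 4 gave 1.79, 1.05 and 0.91, and over the single libraries left out the folds ran up to 4.10, 2.91 and 2.32, with no call. With the Y-linked covariate all 3 were called, at 3.41, 2.27 and 2.01 (adjusted p = 0.0170, 0.0392 and 0.00314), with 636 of 16848 genes. From day 7 to 10, Cfb was at 2.74 ± 0.49 (edgeR adjusted p = 0.0556). That value lay at the threshold: Cfb was called without Per1-/- day 4 (adjusted p = 0.000571), without barcodes shared between libraries (0.0422), with no filter on low counts (0.0180), with the Y-linked covariate (0.0378) and by DESeq2 (8.11e-07). C5ar1 was at -0.53 ± 0.51 (edgeR adjusted p = 0.735). In the lectin pathway, the protease gene Masp1 fell by 1.97 ± 0.26 on the log2 scale in fibroblast-like cells from day 4 to 7 (edgeR adjusted p = 0.0221), and it was the only other complement gene called in either class.

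The macrophage genes also had fibroblast-like folds larger than their standard errors, at the low levels given above. In Per1-/- and Per2-/- against WT, C1qa was at 1.45 ± 0.52 and 1.62 ± 0.54, C1qb at 1.34 ± 0.52 and 1.46 ± 0.54, C1qc at 1.13 ± 0.49 and 1.37 ± 0.51, and C3ar1 at 1.12 ± 0.31 and 1.14 ± 0.31 (edgeR adjusted p between 0.461 and 0.620). C5ar1 was at 1.47 ± 0.53 and 0.86 ± 0.55 (edgeR adjusted p = 0.504 and 0.679), and Cfp at 0.26 ± 0.16 and 0.33 ± 0.16 (0.677 and 0.646). In Per1-/- against Per2-/-, C5ar1 was at 0.61 ± 0.48 (edgeR adjusted p = 0.564). From day 4 to 7 the same genes had 1.39 ± 0.53 (C1qa), 1.25 ± 0.53 (C1qb), 1.17 ± 0.50 (C1qc), 0.96 ± 0.31 (C3ar1) and 0.20 ± 0.16 (Cfp), with edgeR adjusted p = 0.197, 0.233, 0.234, 0.146 and 0.533. The summed C1q level of fibroblast-like cells was lowest in Per2-/- day 4 (3.28 CPM), where 2.49% of cells were macrophage-like, and highest in Per2-/- day 10 (33.4 CPM), where 9.22% were. It was 18.3 CPM in Per1-/- day 7, where 23.0% were. On day 10, fibroblast-like C1qb was at 0.0892, 0.249 and 0.420% of the macrophage-like level in WT, Per1-/- and Per2-/-. The macrophage marker Csf1r was at 0.184, 0.355 and 0.584% and Lyz2 at 0.156, 0.337 and 0.569%. Among the macrophage markers, Ptprc, Cd14, Cx3cr1 and Mertk did not keep this order. The part of free RNA in these folds was not tested.

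Whether genotype acted differently in the 2 classes was tested directly, as the interaction of class and genotype. For Per1-/- against WT, 0 of 9 members were called (0.0122% of 16445 genes; 6 members and 7.54% of all genes under an unadjusted 0.05; 0 by DESeq2), and for Per2-/- against WT 0 of 9 (0.00608%; 7, Cfb included, and 16.6% under it; 1, C3ar1, by DESeq2, with 354 of 11296 genes). Without Per2-/- day 4 the counts were 4 and 7, the 7 with Cfb, and without Per1-/- day 4 they were 1 and 2, with C3 among them in each. Over all genes, 54 and 2024 of 16326 were called without Per2-/- day 4, and 177 and 392 of 16392 without Per1-/- day 4. The log2 fold in macrophage-like cells minus that in fibroblast-like cells was -1.93 ± 0.77 for C3 in Per1-/- and 1.93 ± 0.79 in Per2-/- (edgeR adjusted p = 0.599 and 0.259). For C4b it was -1.57 ± 0.87 and 1.46 ± 0.77 (edgeR adjusted p = 0.761 and 0.380), with C4b at no more than 0.836 CPM in macrophage-like cells. Because C4b was too low for the filter within macrophage-like cells, these fits cannot decide whether genotype acted on it differently by class. For C1qa, C1qb, C1qc, C3ar1 and C5ar1 it lay between -1.19 and -0.96 in Per1-/- (edgeR adjusted p from 0.367 to 0.618) and between -1.38 and -1.18 in Per2-/- (0.0750 to 0.221). For Cfp it was -0.17 ± 0.17 and -0.21 ± 0.17 (edgeR adjusted p = 0.902 and 0.594). No difference is given for Cfb, which had 0 UMI in macrophage-like cells of 4 libraries. Cfb and C4b passed the filter of the interaction fits through their fibroblast-like counts. Where they are among the members counted above, no class difference is read from them.

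In all cells kept, summed by library, the share of macrophage-like cells differed between libraries. That share was 1.71, 6.55 and 3.74% in WT on days 4, 7 and 10, 4.21, 23.0 and 15.9% in Per1-/- and 2.49, 11.7 and 9.22% in Per2-/-. C1qb in all cells was at 53.6, 197 and 248 normalised CPM in WT, at 143, 786 and 671 in Per1-/- and at 74.4, 343 and 380.0 in Per2-/-. For both, Per1-/- was the highest and WT the lowest on each day, and day 7 was above day 4 in each genotype. From day 7 to 10 they differed, since in WT and Per2-/- the share was lower and C1qb higher on day 10. An unnamed cluster with macrophage markers, in which 68.6% of barcodes had been called doublets, held a further 524 cells of WT day 10 beside the 231 macrophage-like cells, and these are not in the share but are in the sums. The same cluster held 25 cells of Per2-/- day 10, and the libraries had 6170 (WT) and 10663 (Per2-/-) cells kept. Had these cells been counted as macrophage-like, WT would not have had the lowest share on day 10. In such sums alone, more cells of a type and more RNA per cell cannot be told apart. Within macrophage-like cells, C1qb was at 0.21 ± 0.12 on the log2 scale in Per1-/- against WT, as given above.

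For Per1-/- against WT in all cells, 6 of 9 members were called, all higher, against 2.55% of 18813 genes in either direction and 2.36% higher. These were C1qa at 1.69 ± 0.19, C1qb at 1.62 ± 0.13, C1qc at 1.60 ± 0.13, Cfp at 1.22 ± 0.12, C3ar1 at 1.41 ± 0.18 and Cfb at 2.47 ± 0.49 (edgeR adjusted p = 0.00533, 0.00278, 0.00311, 0.00334, 0.00843 and 0.0455). Each was higher in Per1-/- than in WT on 3 of 3 days. C3, C5ar1 and C4b were at 1.65 ± 0.50, 1.43 ± 0.39 and 1.18 ± 0.48 (edgeR adjusted p = 0.158, 0.129 and 0.264). With the Y-linked covariate the count was 0 (0 of 18813 genes), and Cfb was at 0.31 ± 0.78. Without day 10 the count was 1, C3ar1 (9 of 18486 genes). The folds of C1qa, C1qb and C1qc lay between 1.44 and 1.96 over all 17 alternatives. The Cfb call held under 6 of 17 alternatives and was lost without any of WT day 4, 7 or 10, Per1-/- day 7 or 10, or Per2-/- day 7 or 10 (adjusted p up to 0.299), and that of C3ar1 was lost without WT day 7 (adjusted p = 0.0592).

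For Per1-/- against Per2-/- in all cells, 2 of 9 members, C1qb and C1qc, were called, both higher (0.271% of all genes, 0.239% higher), at 0.99 ± 0.13 and 0.96 ± 0.13 (edgeR adjusted p = 0.0446 and 0.0485). Cfb was at 2.74 ± 0.50, C5ar1 at 1.57 ± 0.39, C4b at 1.51 ± 0.50, C3 at 1.11 ± 0.50, C3ar1 at 1.01 ± 0.18, C1qa at 0.95 ± 0.18 and Cfp at 0.71 ± 0.11 (edgeR adjusted p between 0.0559 and 0.297). DESeq2 called 7 members (1225 of 16512 genes), and leaving out single libraries gave 0 to 7: the C1qb and C1qc calls were lost without WT day 4 or 10, Per1-/- day 7 or 10, or Per2-/- day 4, 7 or 10, and the 7 came without Per1-/- day 4, when 2006 of 18696 genes were called. For Per2-/- against WT, edgeR called 0 of 9 (0.00532% of all genes; 4 members and 8.63% of all genes under an unadjusted 0.05) and DESeq2 4 (302 of 19046 genes), with C1qa at 0.75 ± 0.18, C1qc at 0.65 ± 0.13, C1qb at 0.62 ± 0.13 and Cfp at 0.50 ± 0.11 (edgeR adjusted p = 0.284, 0.215, 0.215 and 0.252). C3ar1 was at 0.41 ± 0.18 and C3 at 0.53 ± 0.50 (edgeR adjusted p = 0.589 and 0.805).

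From day 4 to 7, 6 of 9 members rose in all cells (9.7% of all genes called, 6.68% higher), namely C1qa by 2.30 ± 0.19, C1qc by 2.24 ± 0.14, C1qb by 2.19 ± 0.13, C3ar1 by 1.96 ± 0.18, Cfp by 1.68 ± 0.12 and C3 by 2.95 ± 0.53 (edgeR adjusted p = 0.000481, 0.000236, 0.000236, 0.000800, 0.000263 and 0.0142). The macrophage-like share rose between these days in 3 of 3 genotypes. C3 lost its call without WT day 4 (adjusted p = 0.0594). Cfb was at 1.74 ± 0.54, C4b at 1.51 ± 0.50 and C5ar1 at 1.23 ± 0.39 (edgeR adjusted p = 0.0897, 0.106 and 0.0912). From day 7 to 10, 1 of 9 members, Cfb, rose (1.6% of all genes called, 1.4% higher), by 2.77 ± 0.46 (edgeR adjusted p = 0.0287). It was higher on day 10 in 3 of 3 genotypes, but the call was lost without WT day 4, 7 or 10, Per1-/- day 7 or 10, or Per2-/- day 7 or 10 (adjusted p between 0.0566 and 0.197). C5ar1 was at -0.74 ± 0.39 and C3ar1 at -0.26 ± 0.18 (edgeR adjusted p = 0.594 and 0.661).

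Of the 35 other genes of the complement list tested in all cells, 3 rose and 1 fell in Per1-/- against WT. Over all genes, 2.55% were called in either direction and 2.36% higher, and none with the Y-linked covariate. Cd93, a receptor of endothelial and myeloid cells, was 1.85 ± 0.21 higher, ficolin A (Fcna), a lectin pathway recognition protein, 1.33 ± 0.24 higher and the integrin chain Itgb2 1.25 ± 0.17 higher, whereas the membrane regulator Cd55 fell by 0.66 ± 0.11 (edgeR adjusted p = 0.00533, 0.0307, 0.0114 and 0.0269). Cd93 was the single 1 of 35 called in Per1-/- against Per2-/- (1.63 ± 0.21, edgeR adjusted p = 0.0446), where 0.271% of all genes were called. For day 7 against day 4, 9.7% of all genes were called in either direction and 6.68% higher. From day 4 to 7, 10 of 35 rose, among them Itgam by 2.09 ± 0.29, C5ar2 by 1.90 ± 0.35, Fcna by 1.72 ± 0.24, Itgb2 by 1.66 ± 0.17, Cd93 by 1.61 ± 0.21, Vtn by 1.27 ± 0.27, Csmd1 by 0.56 ± 0.13, Cd55 by 0.52 ± 0.11 and Cr1l by 0.34 ± 0.08 (edgeR adjusted p from 0.00129 to 0.0465), and Masp1 fell by 1.34 ± 0.14 (0.00131).

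Among the other complement genes, the collectin Colec12 had a median of 284 CPM in macrophage-like, 122 CPM in fibroblast-like and 149 CPM in mesothelial-like cells. C1qbp was at 157, 115 and 135 CPM in the same order. Cd93 was at 249 CPM in macrophage-like and 0.540 CPM in fibroblast-like cells, a difference in the direction of C1q. The C1 inhibitor Serping1 was at 131 CPM in mesothelial-like, 30.2 CPM in fibroblast-like and 0.424 CPM in macrophage-like cells, and Cd55 was at 123 CPM in fibroblast-like cells.

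The genes most like each kind of member were read from 53 sums of a class in a library, over 13039 genes, as Pearson's r of log2(CPM + 1), a description across sums that share libraries. For C1qa they were Ms4a7 (0.991), Lyz2 (0.9904), Trem2 (0.9895), Tyrobp (0.989) and Ctss (0.989). For C4b they were Prelp (0.892), Sardh (0.870), Itih5 (0.853), Per3 (0.850) and Serpine2 (0.840). For C3 the likeness was lower, with Il18 (0.830), H2-DMb1 (0.814), Ggt5 (0.793), Ctla2a (0.788) and Rcsd1 (0.785).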

How the data were processed

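Single-cell libraries (10x Genomics 3′ chemistry) were read from the matrices the authors deposited, which hold raw UMI counts per gene and barcode aligned to mm10 (the same assembly as GRCm38). Per the file headers they were made with Cell Ranger 4.0.0 (days 4 and 7) and 6.0.0 (day 10), whereas the submitters' processing notes name Cell Ranger 7.1, so day 10 and the feature table cannot be told apart. The tables shared 30406 gene identifiers, of which 597 had another symbol. No normalised values were used here.

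The barcodes kept (81999 of 95603) had 3000 UMI or more and no more than 20% mitochondrial counts, 7164 doublets called by scrublet were removed, and the 74835 cells left were clustered (scanpy 1.11.5, leidenalg 0.10.2, resolution 1.0, 30 components) into 33 clusters without the complement genes. Clusters were named from marker lists. CPM are UMI counts of a gene scaled to a fixed total over the cells of the class in a library with at least 50 cells, and intervals are exact 95% Poisson intervals that cover counting error only. Where a class had no UMI, ratios used a floor of 3 counts. Promoters and gene positions came from RefSeq (GRCm38.p6) and GENCODE (GRCm38).

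Counts were summed per class and library and tested with edgeR 4.0.16 (TMM, filterByExpr, quasi-likelihood, genotype and day as factors, two-sided, Benjamini-Hochberg over all genes, threshold 0.05). Nothing stated that libraries of different days came from separate cultures of embryos, so p-values measure the spread between these libraries. In Per1-/-, Xist was at 488 CPM on day 4 and at 0.0674 and 0.0594 CPM on days 7 and 10. Between day 4 and the later days of that genotype, day and sex of the cells thus cannot be told apart. Alternatives were DESeq2 1.42.0, its size factors, no filter, doublets kept, a minimum of 1000 UMI, classes by a marker gate, a Y-linked covariate and leaving out each library or day 10. Leaving out the 1952 cells whose barcode occurred in several libraries was chosen after seeing the data.

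Members are printed with test values where called or where the fold exceeded its standard error, the other complement genes where called or among the 3 highest in a class, and the 5 most alike genes for C1qa, C3 and C4b. A few gene names that these rules would print are not reported here. The members, gene lists and tests were chosen with earlier results of these data known. The scripts were tested on simulated data.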

Additional observations from a re-analysis of the deposited data

How the results depend on the processing

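With 1 library per genotype and day, calls depended on single libraries. The labels carry no replicate numbers beyond the day, so no pairing other than by day was possible. Day, by which the genotypes were matched, was a factor in each fit. Counts of members called, of 9 (7 in macrophage-like cells), ranged as follows when single libraries were left out: 0 to 1 for macrophage-like Per1-/- against Per2-/-, 0 to 3 for fibroblast-like Per1-/- against WT and against Per2-/-, 0 to 1 for fibroblast-like day 10 against 7, 4 to 8 for all cells Per1-/- against WT, 5 to 7 for all cells day 7 against 4, 0 to 7 for all cells Per1-/- against Per2-/-, 0 to 1 for all cells day 10 against 7, and 0 to 4 and 0 to 7 for the interactions of Per1-/- and Per2-/-. With no filter on low counts the count was 1 in macrophage-like Per1-/- against Per2-/-, day 7 against 4 and day 10 against 7, 1 in fibroblast-like day 10 against 7, and 6 in all cells Per1-/- against Per2-/-. DESeq2 gave 1 in fibroblast-like Per1-/- against WT, against Per2-/- and day 10 against 7, 2 in day 7 against 4, 4 and 7 in all cells Per2-/- against WT and Per1-/- against Per2-/-, and 1 in the Per2-/- interaction. The Y-linked covariate gave 1 in fibroblast-like Per2-/- against WT and day 10 against 7, 3 in day 7 against 4 (2, 176 and 636 of all genes), and 0 in all cells Per1-/- against WT and against Per2-/- (0 of all genes). Without day 10 those last 2 counts were 1 and 0, and doublets kept or a minimum of 1000 UMI gave 0 for Per1-/- against Per2-/-. Without shared barcodes fibroblast-like day 10 against 7 had 1. Calls over all genes moved too. With single libraries left out they ran from 1 to 1782 in macrophage-like Per1-/- against Per2-/-, 0 to 571 and 0 to 1437 in fibroblast-like Per1-/- against WT and Per2-/-, 132 to 2006 and 0 to 2006 in all cells for the same contrasts, and 0 to 177 and 0 to 2024 in the interactions. Under the other alternatives they ran up to 523, 227, 715, 1355, 1225, 42 and 354 in the same order, and up to 129, 1502 and 405 in fibroblast-like Per2-/- against WT, day 7 against 4 and day 10 against 7. For the day contrasts with single libraries left out, they ran from 124 to 227 in fibroblast-like day 10 against 7. In all cells they ran from 706 to 2015 in day 7 against 4 and from 181 to 353 in day 10 against 7.

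Folds that turned over were the following, and the cause was not tested. With the Y-linked covariate, C4b and C3 were at -1.81 and -2.63 (fibroblast-like Per1-/- against WT), -0.25 and -0.59 (against Per2-/-), -1.51 and -0.21 (all cells Per1-/- against WT) and -0.29 and -0.15 (against Per2-/-), and C3 was at -0.0593 in all cells Per2-/- against WT (-0.0864 without Per2-/- day 4). With marker gate classes, Cfp and C1qc were at -0.00539 and -0.0465 in macrophage-like Per2-/- against WT, C1qb at -0.0257 in day 10 against 7, C5ar1 at -0.28 in fibroblast-like Per2-/- against WT and Cfp at 0.0337 in the Per1-/- interaction. Macrophage-like C3ar1 in Per2-/- against WT was at 0.0414 without WT day 10, 0.00210 without Per2-/- day 10 and 0.0826 without day 10. Without Per2-/- day 7, fibroblast-like C5ar1 was at 0.0447 in day 10 against 7 and C4b at -0.0833 in the Per2-/- interaction, and without WT day 7, Cfp was at 0.0222 and 0.0242 in the Per1-/- and Per2-/- interactions.

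The following are medians over the 9 libraries. With doublets kept, macrophage-like cells held 77.2% of C1qa, 77.2% of C1qb, 76.7% of C1qc, 67.8% of Cfp, 74.6% of C3ar1 and 73.9% of C5ar1 UMI. The medians without doublets were 94.7, 94.8, 94.7, 83.6, 94.5 and 94.7% in the same order. With marker gate classes they held 4.90% of C4b and 9.47% of Cfb, against main medians of 0.474 and 0.195%. The ratio to fibroblast-like cells was then 0.287 for C4b and 49.2 for Cfp, against 0.0725 and 79.7. Depth limits Cfb and C4b in macrophage-like cells, where a floor of 3 counts is 0.0945 to 0.835 CPM, and C3 in the small WT mesothelial-like samples. Groups of 3 libraries were not tested for outliers.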

Other observations

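C3 was not limited to the 3 classes compared. The highest C3 level of the unnamed clusters described here was in 309 cells led by Adipoq, Retn and Fabp4, genes known from adipocytes, which were nearly all of day 10 and had 101 CPM of C3 (exact Poisson 95% interval 94.7 to 107). The same cells had 276 CPM of adipsin (Cfd), the protease that activates factor B and a known adipocyte product. In all cells, Cfd rose by 6.39 ± 0.63 on the log2 scale from day 7 to 10 (edgeR adjusted p = 0.00168), from 0.0272, 0.221 and 0.0185 normalised CPM in WT, Per1-/- and Per2-/- to 3.65, 6.10 and 6.85, and it was higher on day 10 in 3 of 3 genotypes.

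Astrocyte-like cells of the Per1-/- day 7 library had 151 CPM of C3 and 80.5 CPM of C4b over 51 cells, against 0.503 to 10.4 CPM of C3 and 2.55 to 26.03 CPM of C4b in the 7 other libraries with at least 20 such cells. High C3 and C4b in that library were thus seen in fibroblast-like, mesothelial-like and astrocyte-like cells, while macrophage-like C3 there, 11.3 CPM, was between the values of WT and Per2-/- of the same day.

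A cluster led by Ccl9, Pik3ap1 and Lilrb4a held macrophage markers but was left unnamed because 68.6% of its barcodes had been called doublets. It kept 717 cells, 524 of them in WT day 10, and had C1qb at 1399.9 CPM. C1qa UMI of WT day 10 lay in macrophage-like cells to 64.9% and in unnamed clusters to 34.1%.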
